A study of Homo sapiens with 6 samples.

Results

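Mucins are the large, heavily O-glycosylated proteins that coat epithelial surfaces. Transmembrane mucins such as MUC1, MUC4, MUC13, MUC15 and MUC20 stand on the cell membrane and can be cut there and shed, and several of them bind receptor tyrosine kinases. Secreted mucins such as MUC5B are packed into granules and form gels. Their extracellular parts carry stretches rich in serine, threonine and proline, often built as tandem repeats, and sugar chains are attached to the serines and threonines.

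The 6 mucin genes described here, MUC1, MUC4, MUC5B, MUC13, MUC15 and MUC20, were chosen by symbol out of 17860 genes in the deposited table. MUC16, the mucin that binds mesothelin, was left out of this set and is given only for comparison. MUC15 was picked because it was higher after knockdown of mesothelin (MSLN), so the differences of the 6 genes between the groups are given as descriptions and no p-value is printed for them. How many of them passed the test over all genes is given once, as a count beside the share of all genes. For MUC20, the number of settings in which it was called is given with that count, as a limit on it.

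The cells were HCC1806/HM3, a liver-tropic derivative of the human triple-negative breast cancer line HCC1806 obtained by repeated fat pad injection in mice and recovery from liver metastases. One group carried a control shRNA (shNC, 3 samples) and the other an shRNA against MSLN (shMSLN, 3 samples), each delivered by a lentiviral vector with a NEO cassette and kept under G418 selection. All 6 samples therefore share the HM3 background, the vector type and the drug selection, and no unmodified HM3 or primary-line sample was analysed here. Messenger RNA was selected with oligo(dT) before sequencing. The labels number the samples 1 to 3 in each group and do not say whether they came from separate cultures, so every SD and p-value below measures the spread between these samples, which may be technical.

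Depth was nearly even, at 17507837 to 18512135 estimated reads per sample, and MSLN itself was at 226 to 231 CPM (counts scaled to a common library size by the TMM method) in shNC and 35.4 to 37.1 CPM in shMSLN cells, which is -2.65 on the log2 scale (SE 0.042, edgeR adjusted p = 3.97e-15). The labels call the cells squamous breast carcinoma cells. The 9 basal and squamous markers summed to 3455 to 3842 CPM in shNC and 3017 to 3095 CPM in shMSLN cells. KRT5 alone held most of this, at a mean of 2270 CPM in shNC and 1749 CPM in shMSLN cells. KRT14 was at only 3.52 CPM in shNC, and 3 of the 9 rose and 4 fell. The 6 luminal and hormone receptor markers, PGR lacking a value, summed to 1290 to 1400 and 1247 to 1322 CPM. The 3 leukocyte markers summed to 25.2 to 28.1 and 23.8 to 26.5 CPM. Most of this was CD68, at means of 23.8 and 22.0 CPM, and CD3E was at no more than 1 read. The 3 endothelial markers summed to 7.15 to 8.57 and 8.44 to 9.55 CPM, and the 3 hepatocyte markers were at or under 3 reads or lacked a value. The 4 fibroblast markers summed to 90.2 to 94.9 CPM in shNC and 156 to 160 CPM in shMSLN cells. Of these, 3 were tested and 2 rose, LUM from 60.3 to 125 CPM and DCN from 1.09 to 1.77 CPM. Whether these marker levels have any part in the mucin values was not tested, and in bulk RNA fewer cells of a kind and less RNA per cell cannot be told apart.

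The repeats are shown because they carry the serine and threonine codons of the mucin domains. In the coding sequence of the longest GENCODE 29 transcript of each gene, each gene was searched for its leading repeat period between 15 and 600 bases, and other periods were not counted. Stretches that repeat at that period with at least 80% identity took 69.4% of the 3786 coding bases of MUC1, 59.7% of the 16236 of MUC4 and 32.7% of the 2169 of MUC20. The share was 8.72% in MUC13 and 3.29% in MUC5B at the periods found there, and no repeat within this search was found in MUC15, whose coding length is 1083 bases. The most frequent exact unit of the 3 repeat-rich genes follows, 5′ to 3′ on the coding strand, with the serine and threonine codons in capitals.
MUC1: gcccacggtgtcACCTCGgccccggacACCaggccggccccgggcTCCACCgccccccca
MUC4: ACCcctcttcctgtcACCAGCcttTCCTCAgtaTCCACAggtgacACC
MUC20: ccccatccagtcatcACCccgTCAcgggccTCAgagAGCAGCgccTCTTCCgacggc

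The MUC1 unit of 60 bases occurred in 19 exact copies between chr1:155188589-155191879 (GRCh38, minus strand), and 5 of its 20 codons are for serine or threonine. The MUC4 unit of 48 bases occurred in 14 exact copies within exon 2 of 25, at chr3:195779154-195788081 (minus strand), with 8 of 16 such codons. The MUC20 unit of 57 bases occurred in 10 exact copies within exon 2 of 4, at chr3:195725150-195725776 (plus strand), with 7 of 19 such codons. Serine, threonine and proline codons together made up 48.0% of the MUC4 coding sequence, 44.1% of MUC1, 42.5% of MUC20, 41.8% of MUC5B, 31.9% of MUC15 and 30.7% of MUC13. MUC15 thus had the mucin composition at a lower density than MUC4, MUC1, MUC20 and MUC5B.

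Within the longest coding transcript, 62.9% of 50-base windows were distinct in MUC1, 79.6% in MUC20, 81.6% in MUC5B, 82.2% in MUC4 and 100% in MUC13 and MUC15. For MUC5B, more windows recurred than the repeat share above would hold, so that share leaves out other repeats of this gene. Between genes, 70.3% of the 50-base windows of MUC20 also occur in other transcripts. The pseudogene MUC20P1 shared the most of them, and genes of the deposited table such as CD276 and STAT3 also shared some. The MUC20 counts are therefore uncertain in how reads were shared out. For MUC15 the share was 2.61%, with ANO3 sharing the most, and for MUC1, MUC4 and MUC13 it was 0%.

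By the authors' TPM, which is scaled for length and allows genes to be compared, MUC20 was the most abundant of the 6 mucins in shNC cells. MUC5B and MUC13 were the lowest. The TPM of MUC20, which is known to bind the receptor MET, was 319.5, 389.5 and 364 in the 3 shNC samples, or 358 ± 35.4 (SD, n = 3), and it ranked 346 of 17860 genes by mean TPM in shNC cells. MUC4, a large mucin that binds ERBB2, followed at 51.0, 54.1 and 51.6 TPM, or 52.2 ± 1.66. MUC15, a smaller transmembrane mucin, was at 16.8, 21.6 and 18.5 TPM, or 19.0 ± 2.46. MUC1, whose cytoplasmic tail binds β-catenin, GRB2 and SRC, was at 6.06, 8.07 and 8.22 TPM, or 7.45 ± 1.21. The ranges of these 4 genes did not overlap at any step of the order, and the authors' FPKM gave the same order. MUC5B, at 0.02 to 0.06 TPM, and MUC13, at 0.00 to 0.04 TPM, overlapped in shNC cells and are not ordered beyond their spread.

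MUC20 made up 81.9 ± 0.612% of the summed TPM of the 6 mucins in shNC cells and 80.6 ± 0.548% in shMSLN cells. MUC4 went from 12.0 ± 0.827% to 7.37 ± 0.346% and MUC15 from 4.34 ± 0.203% to 10.5 ± 0.688%. The ratio of MUC15 to MUC4 TPM was 0.329, 0.400 and 0.359 in shNC and 1.27, 1.54 and 1.45 in shMSLN cells. By TPM, MUC4 was thus the higher of both in every shNC sample and MUC15 in every shMSLN sample. That order depends on the transcript length behind the TPM of MUC4, given below, and on the rise for which MUC15 was picked. In CPM, which is not scaled for length, MUC4 stayed higher in shMSLN cells, at means of 124 against 78.1. The summed TPM itself was 436 ± 40.4 in shNC and 497 ± 5.38 in shMSLN cells. Because MUC20 holds most of this sum, the uncertainty in how its reads were shared out carries into the sum and every share.

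Of the 6 mucins, 4 passed the filter on low counts, and 3 of these 4 had an adjusted p below 0.05 in the edgeR fit over all genes, 2 higher and 1 lower in shMSLN. The same comparison called 34.6% of its 14552 tested genes, 16.6% higher and 18.0% lower. MUC20, 1 of the 2 higher mucins, was called in 10 of 16 alternative settings and lost without any 1 sample other than shNC replicate 2. The groups did not overlap for 3 of the 4 mucins, against 46.2% of all tested genes, 22.7% higher and 23.5% lower. Since MUC15 was picked in this contrast, nothing is read from these counts. The median log2 fold change of the 4 was 0.091, beside 0.0019 for all tested genes.

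**Figure D1:**
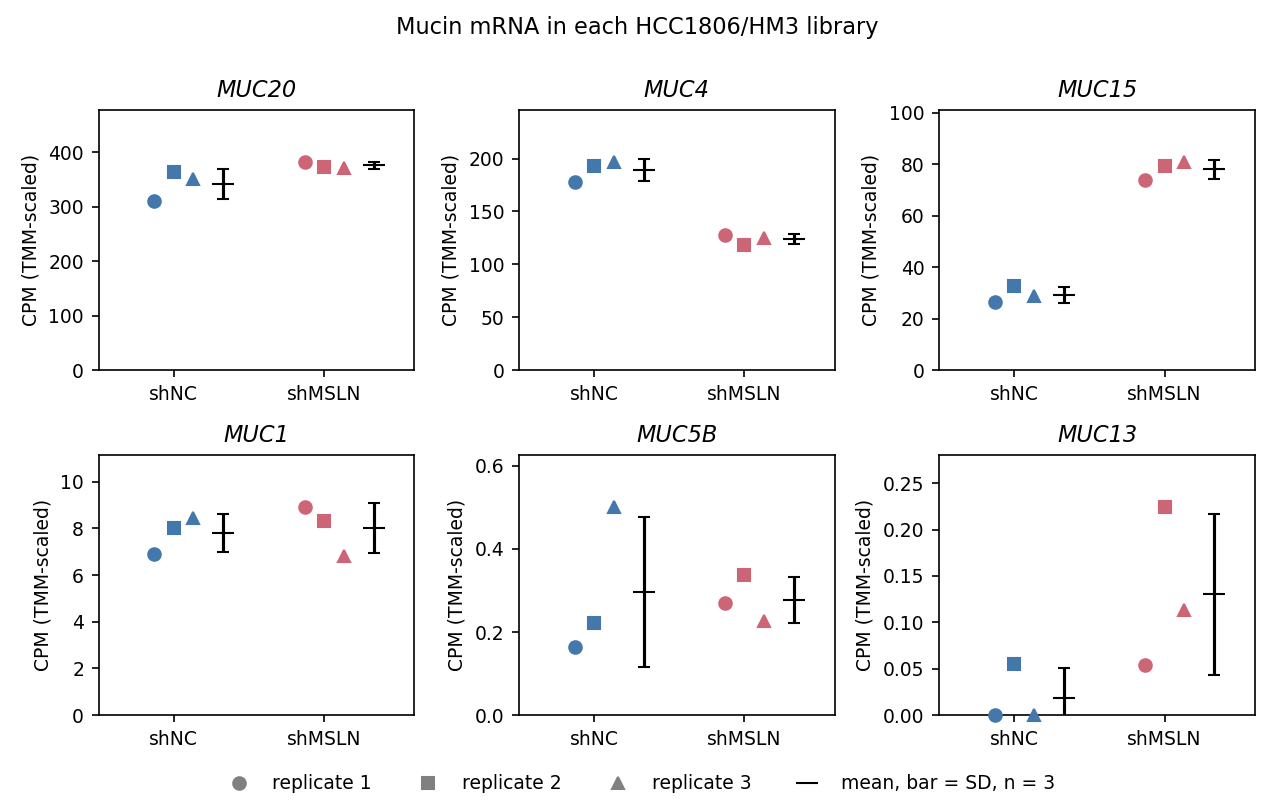
TMM-scaled counts (CPM, linear axes from 0, a scale of its own for each gene) of the 6 mucins in the 3 shNC and 3 shMSLN samples. Each point is a sample, its shape gives the replicate number, and the bar gives the mean and SD of 3 samples. MUC15 sits between 26.3 and 32.5 CPM in shNC and between 73.9 and 81.0 in shMSLN, MUC4 lies lower in shMSLN, and the MUC1 groups overlap.

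MUC15 was at 26.3, 32.5 and 28.7 CPM in the shNC samples and at 73.9, 79.4 and 81.0 CPM in the shMSLN samples. The 3 shMSLN samples all lay above the highest shNC sample and the groups were far apart relative to their spread. The means were 29.1 ± 3.13 and 78.1 ± 3.71 CPM (SD, n = 3), a log2 fold change of 1.42 (SE 0.067) or 2.68-fold. Of 14552 tested genes, 65 (0.447%), MUC15 included, had a log2 fold change at least as high, which describes the choice of the gene. The value was 1.35 with shMSLN replicate 1 alone and 1.46 with replicates 2 and 3. Replicates 2 and 3 hold many more whole-number counts in the table, but their MUC15 counts, 1414.69 and 1433.88, were not whole.

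MUC4 was at 178, 193 and 197 CPM in shNC and at 128, 119 and 125 CPM in shMSLN cells. All 3 shMSLN samples lay below the lowest shNC sample, at a mean of 189 ± 10.2 against 124 ± 4.78 CPM. The log2 fold change was -0.61 (SE 0.046), or 0.655-fold, and 2.43% of tested genes were as low or lower. It was -0.56 with shMSLN replicate 1 alone and -0.64 with replicates 2 and 3, whose MUC4 counts, 2114 and 2214, were whole. On the TPM scale the difference was smaller, 52.2 ± 1.66 against 36.7 ± 2.02 TPM or -0.51 on the log2 scale. The transcript length implied by the authors' counts and FPKM differed between samples, from 7299 to 8152 bases, and its part in this was not tested. That length lies below the longest annotated coding sequence of MUC4 and above the shortest, 3375 bases. For MUC15 the implied length stayed within 3301 to 3318 bases and for MUC20 within 2052 to 2075. For MUC1 it ran from 1986 to 2684 bases, so the MUC1 TPM values carry this spread too.

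MUC20 was at 310, 363 and 350 CPM in shNC and at 383, 374 and 371 CPM in shMSLN cells. The shMSLN samples were all above the shNC samples, but the highest shNC and the lowest shMSLN sample were close, and the means were 341 ± 27.8 and 376 ± 6.04 CPM. The log2 fold change was 0.14 (SE 0.049), or 1.10-fold, and it was 0.074 without shNC replicate 1, the lowest sample. Over 16 alternative settings it lay between 0.074 and 0.19. It was 0.17 with shMSLN replicate 1 alone and 0.13 with replicates 2 and 3, whose MUC20 counts, 6665 and 6576, were whole. The windows that MUC20 shares with its pseudogene and other genes leave in doubt which reads were counted for it.

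MUC1 was at 6.90, 8.04 and 8.46 CPM in shNC and at 8.92, 8.30 and 6.83 CPM in shMSLN cells. The groups overlapped over nearly their whole range, with means of 7.80 ± 0.809 and 8.02 ± 1.07 CPM and a log2 fold change of 0.043 (SE 0.124). The sign depended on the sample, since shMSLN replicate 1 alone gave 0.20 and replicates 2 and 3 gave -0.043. A difference in MUC1 was not detected in these samples.

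**Figure D2:**
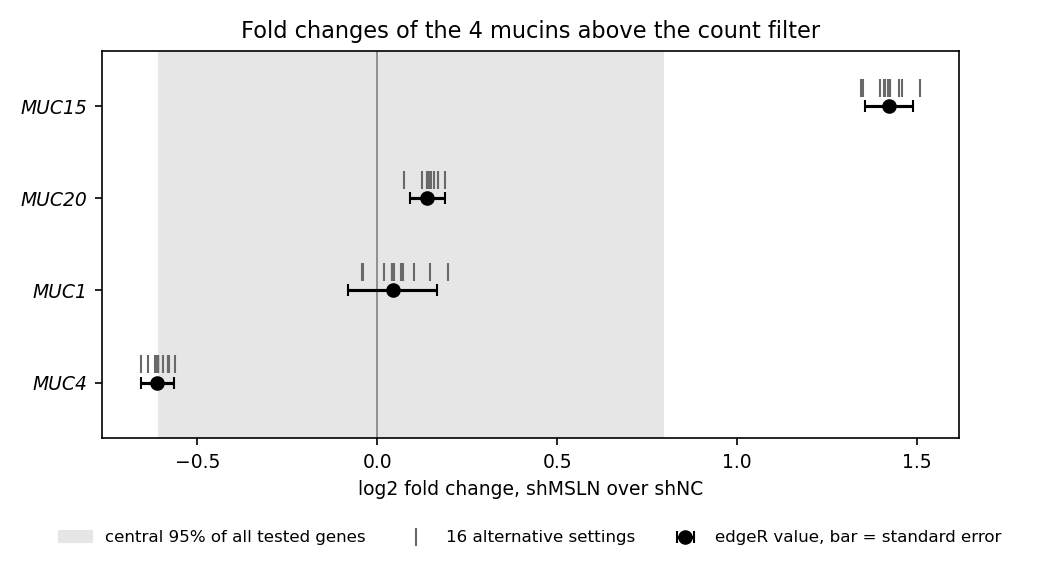
Log2 fold change of shMSLN over shNC for the 4 mucins above the count filter. Black points are the edgeR values with their standard errors, grey ticks are the 16 alternative settings, and the shaded band holds the central 95% of all tested genes, from -0.61 to 0.80. MUC15 lies above the band under every setting, MUC4 lies at its lower edge, and the ticks of MUC1 lie on both sides of 0.

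MUC5B, a gel-forming mucin of airway and salivary glands, had 3, 4 and 9 reads in shNC and 5, 6 and 4 reads in shMSLN cells. MUC13, a transmembrane mucin of the gut, had 0, 1 and 0 reads in shNC and 1, 4 and 2 reads in shMSLN cells, where a count of 0 still allows up to 3 reads. Both failed the filter on low counts and no fold change was computed. Messages of the secreted MUC5B and of MUC13 were thus at the limit of detection in both groups.

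All of the 6 genes are on autosomes, and MUC4 and MUC20 are neighbours. MUC20 (chr3:195720882-195741123, plus strand) and MUC4 (chr3:195746765-195812277, minus strand) lie 5641 bases apart on opposite strands. On the far sides of the pair, APOD rose from 0.884 to 2.66 CPM (log2 fold change 1.58, adjusted p = 0.000134) and TNK2 gave -0.089 (adjusted p = 0.300).

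MUC15 (chr11:26559033-26572233, minus strand) lies inside ANO3, an anoctamin gene on the opposite strand, and 175 of its 3556 exonic bases (4.92%) are also exonic in ANO3. ANO3 had 25, 44 and 31 reads in shNC and 52, 48 and 57 reads in shMSLN cells, a log2 difference of 0.65 (SE 0.22, adjusted p = 0.0321) that stayed below 0.05 in 9 of 16 settings and was lost without any 1 sample other than shNC replicate 2, for instance at 0.48 without shNC replicate 1. The reads of ANO3 are few beside the 1581 and 4224 reads of MUC15 summed over the shNC and shMSLN samples. Whether the counting used strand is not given in the sources used here, so reads from the shared bases cannot be assigned to either gene. SLC5A12, the next gene on one side, rose from 16.5 to 21.4 CPM (0.38, adjusted p = 0.00126; not called in 1 of 16 settings), and LUZP2 on the other gave -0.016 (adjusted p = 0.857).

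MUC1 (chr1:155185824-155192916, minus strand) is flanked by TRIM46 (log2 fold change 0.057, adjusted p = 0.793) and by THBS3, which rose by 0.24 (adjusted p = 0.0242) but was not called without shNC replicate 3 (0.17), without shMSLN replicate 1 or 3 (0.23 and 0.20) or with shMSLN replicate 1 alone (0.24). MUC13 (chr3:124905442-124953819, minus strand) lies between ITGB5, which fell (-0.26, adjusted p = 0.00713), and HEG1, which rose from 21.0 to 37.1 CPM (0.82, adjusted p = 1.63e-07). MUC5B (chr11:1223066-1262172, plus strand) follows MUC5AC, with 6 to 8 reads in shNC and 8 to 11 in shMSLN samples, and precedes TOLLIP (-0.036, adjusted p = 0.610).

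RefSeq promoter sequence (GRCh38.p14, 250 bases before to 50 after the start) was found for MUC1, MUC4 and MUC13. On either strand, the MUC4 window held an NF-κB motif (GGG and CC with any 5 bases between) in 2 overlapping places, TTCNNNGAA (STAT) once and GGGCGG (SP/KLF) once, which occur in 58.7%, 7.66% and 45% of 35116 promoters. The 2 MUC1 windows, chr1:155192866-155193165 and chr1:155192860-155193159, are nearly the same sequence and hold the same sites. These were GGGCGG in 4 places, some of them overlapping, and the NF-κB motif once. A TATA box, searched as TATAAA and present in 11.5% of promoters, also occurred once. The MUC13 window, chr3:124934702-124935001, lies inside the gene span given above and not at its 5′ end. It held the AP-1 letters TGANTCA once (7.71% of promoters), and CCGGAA (ETS) was in none of the windows of the 3 genes (17.2%).

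Both shRNA targets named by the study for human MSLN are shown to place them against the mucins, with the longest run that also occurs in a MUC15 transcript in capitals. Which of them the sequenced cells carried is not given in the sources used here.
shRNA1: tggccaaCCCACCTAAcattt
shRNA2: ctggacgTCCTAAAGcataaa

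The first target lies in exon 4 of 17 of MSLN, in coding sequence at chr16:763667-763687 (plus strand), and the second in exon 11, also coding, at chr16:766208-766228. Of the 21 bases, the 6 mucins shared runs of at most 9 with the first target and of at most 8 with the second. Runs at least that long occur in 14.1% and 36.0% of 19669 protein-coding genes. Only the longest shared run was searched, so whether either shRNA acts on a mucin transcript was not tested.

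Over the 6 samples, the genes whose centred log2 CPM lay closest to that of MUC15 were SOX6, OLR1 and FRAS1, with root mean square differences of 0.066, 0.069 and 0.073 among 13761 genes. Their log2 fold changes were 1.35, 1.51 and 1.36. The genes closest to MUC4 were ARNTL2, AKAP12 and SCEL, with differences of 0.031, 0.037 and 0.045 and log2 fold changes of -0.59, -0.66 and -0.68. These likenesses rest on the same 6 libraries and mostly on the difference between the groups.

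Of 15 other mucin genes, 13 were in the table and 3 were tested, and 1 of the 3 was called, MUC16. MUC16 fell from 148 ± 9.16 to 87.6 ± 2.50 CPM, and its difference of -0.76 on the log2 scale (SE 0.049, adjusted p = 3.12e-08) was called in all 16 alternative settings. MUC4 and MUC16, both large transmembrane mucins, were thus both lower in all 3 shMSLN samples than in any shNC sample. MUC3A was at 1.40 ± 0.220 and 0.846 ± 0.207 CPM (-0.72, adjusted p = 0.0589), and OVGP1, the oviductal mucin, at 2.08 and 1.72 CPM (-0.28, adjusted p = 0.324). The number called in this list was 2 without shNC replicate 1 and 3 without shMSLN replicate 1.

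The remaining mucins were near the detection limit, as MUC5B and MUC13 were. MUC2 had 3 to 10 reads per sample, MUC5AC 6 to 11, MUCL3 5 to 12, MUC12 0 to 5, and MUC6 and MUC7 0 to 2. MUC22 had 4, 3 and 4 reads in shNC and 9, 12 and 10 reads in shMSLN cells and was not tested. MUC19, MUC21 and MUCL1 lacked a value in at least 1 sample, and MUC3B and MUC17 were not in the table.

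Genes that act on mucins were read from lists, each by its count beside the 34.6% called over all tested genes. Of 7 tested sialomucins and mucin-like glycoproteins, 2 rose and 1 fell, with a median log2 fold change of 0.051. CD164 rose from 398.8 to 457.8 CPM (0.20, adjusted p = 0.00203), PARM1 from 4.39 to 6.35 CPM (0.54, adjusted p = 0.0249), and PODXL fell from 124 to 113 CPM (-0.14, adjusted p = 0.0154), while CD34 was not called (adjusted p = 0.231). PARM1 was not called without shNC replicate 3 (0.44) or shMSLN replicate 1 (0.37), and PODXL without shMSLN replicate 1 or 3 (-0.13 and -0.12). The groups overlapped for PARM1, and for none of the other called genes of these lists. Without shMSLN replicate 1 or with it alone only 1 was called.

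Among the enzymes that extend and cap O-glycans, 10 of 16 tested were called (62.5%), 3 higher and 7 lower, with a median of -0.20. ST3GAL1, which caps core 1 glycans with sialic acid, fell from 105 to 54.1 CPM (-0.95, adjusted p = 2.08e-09). ST6GALNAC1, which makes the sialyl-Tn antigen, fell from 8.29 to 3.59 CPM (-1.21, adjusted p = 5.47e-06) and B3GNT3 from 44.3 to 35.5 CPM (-0.32, adjusted p = 0.000619). GCNT4, a branching enzyme, rose from 25.5 to 34.1 CPM (0.42, adjusted p = 0.000508), as did GCNT1 (0.13, adjusted p = 0.0378) and ST3GAL2 (0.21, adjusted p = 0.0243), each called in 10 of 16 settings and lost without shNC replicate 2 or 3, without shMSLN replicate 3, and without shMSLN replicate 2 (GCNT1) or 1 (ST3GAL2). The count was 6 with DESeq2, without shNC replicate 2 or without shNC replicate 3, 5 without shMSLN replicate 3, and 4 with shMSLN replicate 1 alone.

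Of the 8 proteases and γ-secretase subunits reported here, which cut membrane mucins and other surface proteins, 2 rose, with a median of 0.073 over the 8. NCSTN, a subunit of γ-secretase, rose from 76.3 to 100.3 CPM (0.39, adjusted p = 5.07e-06), and MMP14 from 264 to 307 CPM (0.22, adjusted p = 0.000375). ADAM9, ADAM10 and APH1A were not called (adjusted p = 0.276, 0.886 and 0.111).

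Of 14 binding partners of mucins, 3 rose and 2 fell, with a median of -0.053. ERBB3 rose from 139 to 178 CPM (0.35, adjusted p = 1.53e-05), EGFR from 535 to 604 CPM (0.18, adjusted p = 0.00123; called in 15 of 16 settings) and LGALS1, a galectin, from 70.1 to 88.6 CPM (0.34, adjusted p = 0.000177). ICAM1, a ligand of MUC1, fell from 19.7 to 12.2 CPM (-0.69, adjusted p = 4.46e-05) and SOS1 from 192 to 169 CPM (-0.19, adjusted p = 0.00458). ERBB2, the partner of MUC4, gave an adjusted p of 0.213, MET, the partner of MUC20, 0.530, and SRC and CTNNB1, partners of MUC1, 0.185 and 0.790. LGALS3 and LGALS8 were not called either (adjusted p = 0.145 and 0.451). With shMSLN replicate 1 alone 3 of the 14 were called.

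Of 12 tested genes of mucus secretion, 2 rose and 4 fell, with a median of 0.11. AGR2, a protein disulfide isomerase needed for mucin folding, fell from 598 to 429 CPM (-0.48, adjusted p = 8.13e-08), RAB3D, which acts in granule release, from 41.0 to 30.3 CPM (-0.43, adjusted p = 8.79e-05), ANO1, a chloride channel, from 124 to 104 CPM (-0.26, adjusted p = 0.000146) and PIGR, the receptor that carries IgA across epithelia, from 6.16 to 2.21 CPM (-1.48, adjusted p = 0.000336). TFF2, a trefoil peptide, rose from 2.54 to 3.53 CPM (0.47, adjusted p = 0.0434; called in 9 of 16 settings and lost without any 1 sample other than shMSLN replicate 3) and CREB3L4 from 18.9 to 24.6 CPM (0.38, adjusted p = 0.00171).

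Of the 16 tested transcription factors reported here, which are known to act on mucin promoters, 3 rose and 5 fell, with a median of -0.084. ELF3 fell from 380 to 274 CPM (-0.47, adjusted p = 2.43e-07), KLF4 from 28.9 to 20.1 CPM (-0.52, adjusted p = 4.99e-05), FOXA1 from 100 to 83.6 CPM (-0.26, adjusted p = 0.000924) and NFKB1 from 112 to 97.8 CPM (-0.19, adjusted p = 0.00434), and SP3 fell as well (-0.17, adjusted p = 0.0135) but was not called without shNC replicate 2 (-0.12) or shMSLN replicate 1 (-0.16). GATA6 rose from 6.42 to 9.62 CPM (0.59, adjusted p = 0.000906), NR3C1 by 0.22 (adjusted p = 0.00188) and HIF1A by 0.13 (adjusted p = 0.0353; called in 9 of 16 settings and lost without any 1 sample other than shNC replicate 2). SP1, STAT3, RELA and GATA3 were not called (adjusted p = 0.564, 0.115, 0.0705 and 0.639). With shMSLN replicate 1 alone 4 of the 16 were called.

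**Figure D3:**
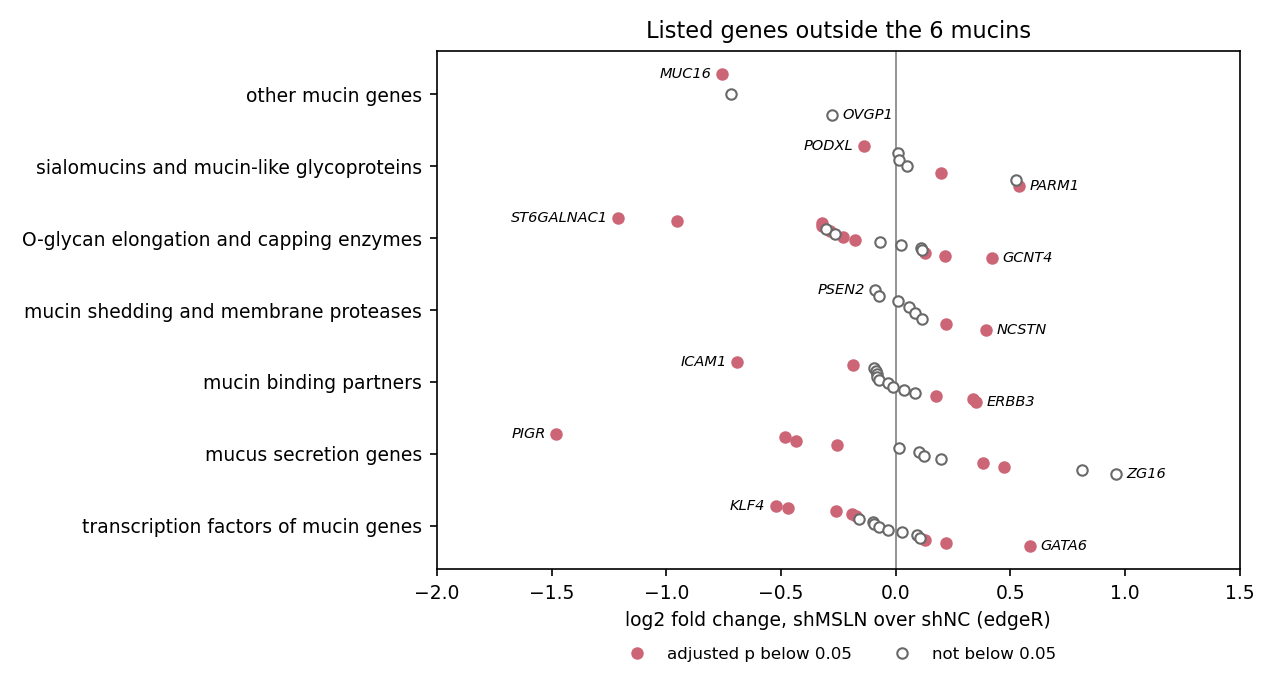
Log2 fold change of shMSLN over shNC for the tested genes of 7 lists outside the 6 mucins, 1 point per gene. Filled points have an edgeR adjusted p below 0.05, open points do not, and the lowest and highest gene of each list are named. MUC16 at -0.76 is the filled point among the other mucin genes, and the O-glycan enzymes run from ST6GALNAC1 at -1.21 to GCNT4 at 0.42.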

How the data were processed

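The deposited table lists estimated counts, FPKM and TPM per gene and sample. The authors' expected counts are not scaled to library size, and the authors' FPKM and TPM are scaled for length and depth. The submitters' processing notes name GRCh38.p13, while the aligner, quantifier and annotation are not given in the sources used here. In shMSLN columns 1287 genes carry missing marks and were left out, none of them among the 6 mucins. Of counts over 100 reads, 47.7% and 47.8% were whole in shMSLN replicates 2 and 3 and 3.36% to 7.02% elsewhere.

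Counts were rounded and fitted with edgeR 4.0.16 in R 4.3.3 (TMM, filterByExpr, quasi-likelihood test), p-values being adjusted by Benjamini-Hochberg across 14552 genes. A gene was called at an adjusted p below 0.05. The SE was the log2 fold change over the root of F, and CPM used TMM-scaled totals. No fold was given where both groups held about 3 reads or fewer per library or failed the filter. DESeq2 1.42.0, limma-voom 3.58.1, other scalings, filters and sample sets were alternatives. The fit was tested on simulated data.

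The members and lists were chosen with earlier results of these data known, so no pattern here is independent of them. Named genes were the 6 mucins, MSLN, the other mucins in the table, of each list up to 4 genes with the smallest adjusted p and those over 100 CPM, neighbouring genes, and the 3 closest in pattern to MUC15 and to MUC4. GCNT1, ST3GAL2, TFF2, CREB3L4, SP3, KRT5, KRT14, LUM, DCN, PGR, CD68 and CD3E fall outside this rule, having been picked once their values had been seen. Coordinates are of GENCODE 29 on GRCh38, and the annotation used for the counts may differ from it. Repeats were stretches of period 15 to 600 bases, and the limit that picks the shortest period was lowered after a first setting had returned a multiple of it for MUC20. Some genes that the lists covered were left out of them and are not reported here.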

Additional observations from a re-analysis of the deposited data

How the results depend on the processing

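Over 16 alternative settings, MUC15 lay between 1.35 and 1.51 and MUC4 between -0.66 and -0.56 (log2 fold change). All settings refit the same 6 libraries in which MUC15 was picked, so its range says nothing about stability. MUC20 ranged from 0.074 to 0.19 and MUC1 from -0.043 to 0.20. The ratio of the authors' mean TPM gave -0.51 for MUC4 against -0.61 from counts. Over all genes, 5032 were called, 1797 with shMSLN replicate 1 alone, which leaves fewer samples, 3863 with DESeq2 and 3695 to 5399 leaving out 1 sample in turn. Same-numbered samples correlated at 0.22, 0.085 and 0.095 in their deviations, not all above 0.1, and the labels name no shared culture or day, so they were not treated as pairs. Each sample still correlated best with its own number, a hint of pairing from the data and not the design, and with the replicate block 5789 genes were called. At this depth MUC5B and MUC13 could not be compared.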
